A study of Mus musculus with 10 samples.

Results

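The replication-dependent histone genes encode the core histones H2A, H2B, H3 and H4 and the linker histone H1. They were taken as all protein-coding genes of the deposited table whose GENCODE M21 symbol begins with Hist1h, Hist2h, Hist3h or Hist4h. This gave 67 of the 53392 genes in the table, of which 14 had a mean of 10 or more counts over the livers. RNA was sequenced from whole frozen liver of mice on the C57BL/6 background at 24 weeks of age. Of these, 5 were wild type (WT) and 5 lacked hepatic Fbp1, the gene of a gluconeogenic fructose bisphosphatase (Fbp1-deleted), and no other allele or agent is named for either group. Which promoter or Cre line made the deletion, and the sex of the mice, is not given in the sources used here.

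Replication-dependent histones are made in bulk when DNA is copied, and their genes lie in clusters of short, mostly intronless copies. Their mRNAs are known for ending in a conserved stem-loop instead of a poly(A) tail. The stem-loop binding protein SLBP attaches to it, and the U7 small nuclear RNP helps to cut the mRNA just downstream. In tissues that divide little, such as adult liver, some of these genes are also known to yield longer, polyadenylated or spliced mRNAs. The labels describe the libraries as mRNA libraries, and their capture step is not stated, so the share of stem-loop mRNA that was sampled is unknown.

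The stem-loops are shown because they are typical of the class and because their bases set H4 apart from the other histones. In GENCODE M21 transcripts (GRCm38), 46 of 67 histone genes held a match to the 16-base histone stem-loop, against 64 of 21884 other protein-coding genes (0.292%). Many of the genes without a match, such as Hist1h1b, Hist1h2aa and Hist1h3h, have 0 annotated bases after the coding sequence. Their annotated transcripts end too early to show a stem-loop, so the genes themselves may still have one. The lines give the match in capitals with up to 5 bases on either side, 5′ to 3′, for the genes described at length below.
Hist2h2aa1 and Hist2h2aa2: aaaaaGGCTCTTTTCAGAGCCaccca
Hist3h2a: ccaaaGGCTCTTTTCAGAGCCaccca
Hist2h3c2: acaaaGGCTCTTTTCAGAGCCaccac
Hist1h1c: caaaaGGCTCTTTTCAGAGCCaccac
Hist1h4h: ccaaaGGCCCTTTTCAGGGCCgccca
Hist1h4i: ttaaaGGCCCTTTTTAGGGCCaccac
The same 16 bases, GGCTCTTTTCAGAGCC, stood in 26 genes, namely 3 of H1, 10 of H2A, 8 of H2B and 5 of H3, and in 0 of H4. The H4 genes with a match carried 4 versions of their own, of which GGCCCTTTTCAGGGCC was found in 7 genes. Hist1h2bc and Hist2h2be had no match in their annotated transcripts. That of Hist1h2bc has 2 exons and an intron of 7554 bases.

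Most histone genes were barely detected. Counts were 0 in all 10 livers for 11 of the 67 genes, and 39 genes had a mean below 1 count. A count of 0 allows up to 0.123 to 0.182 CPM (read counts scaled to library size), depending on the library, as the value of 3 counts, and this limit covers counting error only. The genes nearest to the mean of 10 counts were Hist1h2be (12.5) and Hist1h1d (13.5) above it and Hist4h4 (8.9) and Hist2h4 (6.5) below it. The 14 genes above it were also the 14 that passed edgeR's filter on low counts and were tested, comprising 2 of 6 H1, 5 of 18 H2A, 4 of 18 H2B, 1 of 12 H3 and 2 of 13 H4 genes.

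Few genes carried most of the histone reads. Hist2h2aa2 held 35.4% of the summed histone CPM and Hist1h2bc 33.3%, followed by Hist1h1c with 10.2% and Hist2h2aa1 with 9.37%. Per kilobase of the longest annotated transcript, mean levels over the 10 livers were 112 CPM for Hist2h2aa2, 48.3 for Hist1h2bc, 26.8 for Hist2h2aa1, 10.9 for Hist1h1c, 3.90 for Hist1h4i and 3.18 for Hist1h4h. Among the 14 tested genes the lowest level per kilobase was that of Hist1h1d, at 0.0934 CPM. Its GENCODE transcript has 7425 bases and its RefSeq gene 776, so this rank depends on the annotation used.

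Annotated transcript ends varied widely among these genes. Past the stem-loop, the annotated transcript went on for a median of 353.5 bases in the 10 tested genes with a match and for 65.5 bases in the 36 untested ones. A polyadenylation hexamer (AATAAA or ATTAAA) followed the stem-loop in 6 of the 10 and in 11 of the 36. Hist1h1c runs 840 bases past it, with AATAAA in its last 50 bases, and Hist3h2a 1643 bases. Both Hist2h2aa genes stop 35 bases past it, without a hexamer. These are properties of the annotation, and which 3′ ends the livers used cannot be read from counts per gene.

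**Figure D1:**
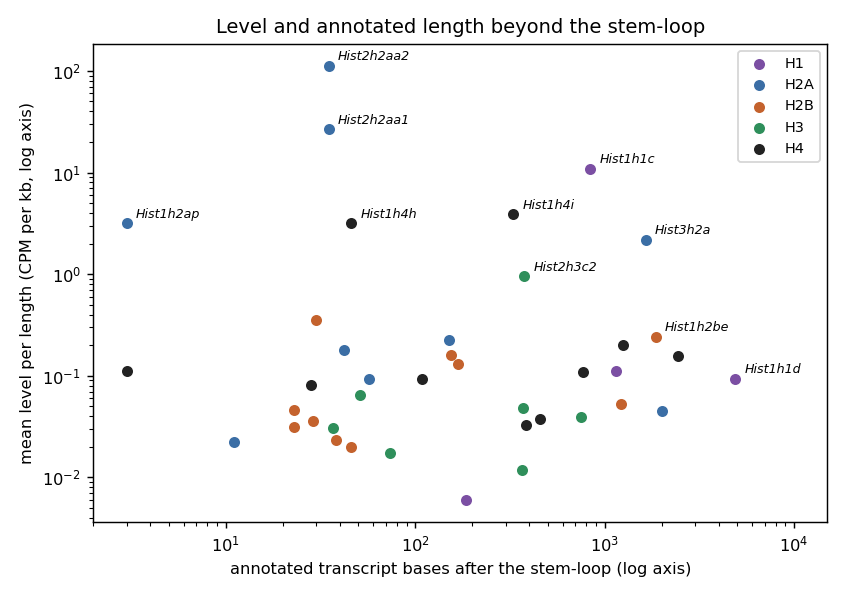
Mean level per kilobase of transcript over the 10 livers (CPM per kb, log axis) against annotated transcript bases after the stem-loop (log axis), 1 point per gene, coloured by histone class. The 40 genes with a match and a count above 0 are plotted, and Hist2h2aa2, Hist2h2aa1 and Hist1h1c stand highest, at 35, 35 and 840 bases.

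Copies of these genes are hard to tell apart by short reads. Of 67 histone genes, 66 shared at least 1 word of 31 bases with another annotated gene, and in 41 more than 50% of the words were shared. All words of Hist2h2aa1 and of Hist2h2aa2 recur in another gene, and so do 98.3% of those of Hist1h2bq and 93.4% of those of Hist1h2ap. The share was 64.2% for Hist2h3c2, 50% for Hist1h4h, 35.6% for Hist1h4i, 33.5% for Hist1h2bc, 11.4% for Hist1h1c and 2.8% for Hist2h2be. The deposited counts are estimates in which Salmon divides reads between copies, so a value of a single copy is less certain than its replicate spread shows, while Hist2h2be and Hist1h1c stand on mostly unshared sequence.

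Most histone reads came from genes that were lower in Fbp1-deleted liver. Summed over all 67 genes, they stood at 230, 210, 189, 198 and 221 CPM in the WT livers and at 106, 131, 148, 111 and 132 CPM in the Fbp1-deleted livers, numbered 1 to 5 and 6 to 10 in the labels. The groups did not overlap, and the Fbp1-deleted mean was 59.9% of the WT mean. H2A stood at 105 ± 9.80 against 59.9 ± 9.07 CPM (SD, n = 5 each) and H2B at 75.0 ± 16 against 45.6 ± 8.90 CPM, with no overlap in either sum. H3 stood at 2.12 ± 0.980 against 0.551 ± 0.420 CPM and overlapped, and H4 at 7.22 ± 1.65 against 3.67 ± 0.210 CPM without overlap. H1 stood at 20.3 ± 6.45 against 15.8 ± 10.3 CPM and overlapped. These sums are a description and were not tested. In bulk liver, fewer cells of a type and less RNA per cell cannot be told apart.

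**Figure D2:**
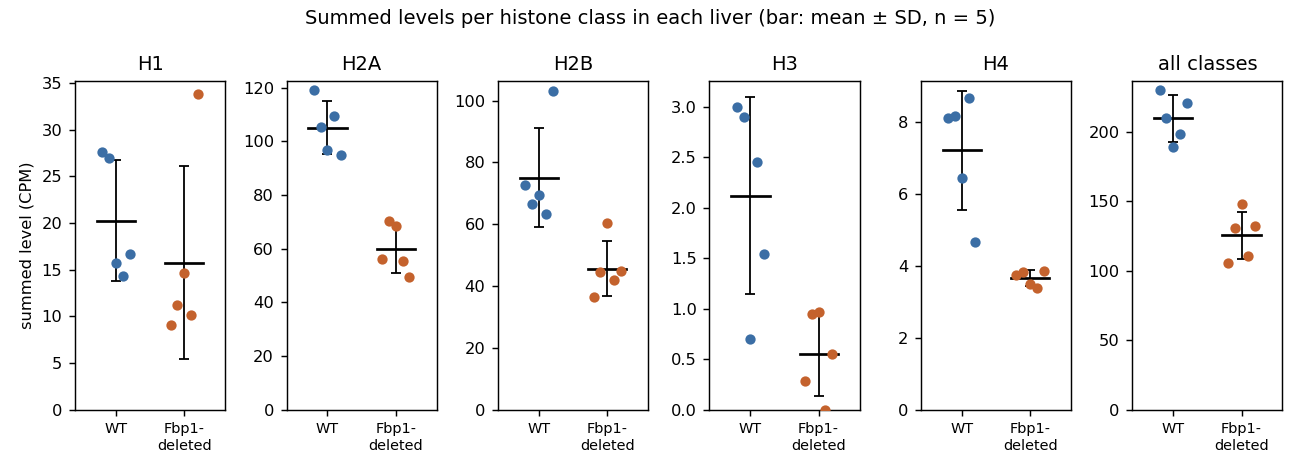
Summed CPM of all genes of each histone class in each liver (points), with the mean and SD of each group (bars, n = 5), each panel on its own linear axis from 0. Groups are apart for H2A, H2B, H4 and the total, where WT livers lie between 189 and 230 CPM and Fbp1-deleted livers between 106 and 148 CPM.

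Of the 14 genes tested, 7 fell and 0 rose in Fbp1-deleted liver (quasi-likelihood test of edgeR, with p adjusted by Benjamini-Hochberg over the 15392 genes tested and a threshold of 0.05). Over all genes tested, 10% were called lower and 10.6% higher. At an unadjusted p under 0.05, 8 histone genes were lower and 0 higher, and DESeq2 called 7 lower and 0 higher, limma-voom 6 and 0. The groups did not overlap for 5 of the 14, all lower in Fbp1-deleted liver, where 6.89% of all genes tested did so in that direction. Among the 5 is Hist1h2bc, whose lowest WT and highest Fbp1-deleted liver both stood at 57.3 CPM to the precision given. Hist2h2aa1 and Hist2h2aa2 are also among them, and all words of Hist2h2aa2 recur in Hist2h2aa1. The median fitted change was -0.80 on the log2 scale, against 0.01 over all genes tested, and 13 of 14 fitted changes were below 0 (49.1% of all genes). These counts cover only the genes that passed the filter on low counts. Fbp1 itself, which checks the labels, stood at 910 ± 119 CPM in WT and 9.39 ± 2.38 CPM in Fbp1-deleted liver.

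**Figure D3:**
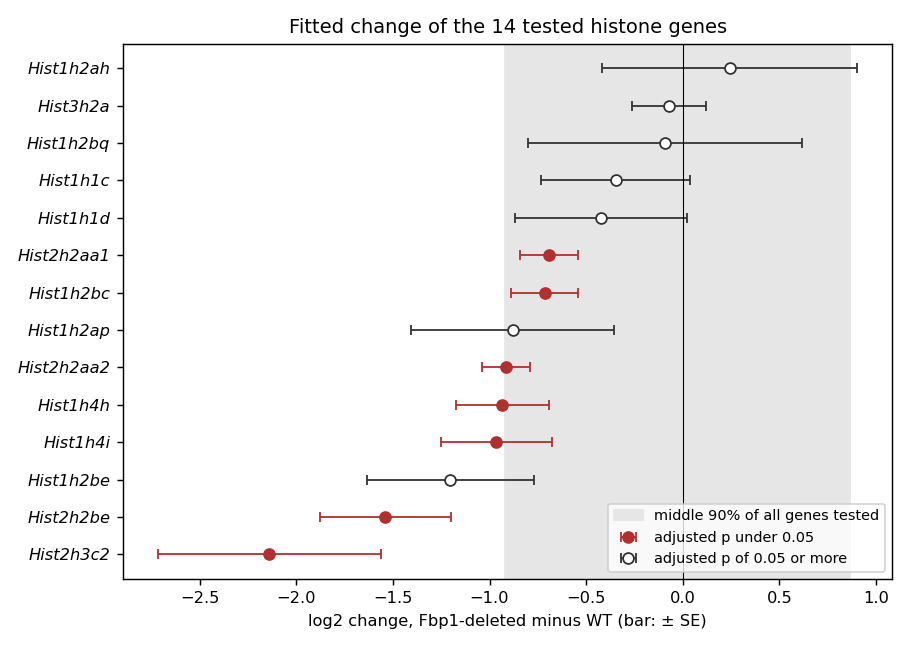
Fitted log2 change, Fbp1-deleted minus WT, of each of the 14 tested histone genes (points) with its standard error (bars), filled red where the adjusted p was under 0.05. The grey band holds the middle 90% of all genes tested, from -0.92 to 0.87, and 7 filled points lie below 0, with Hist2h3c2 and Hist2h2be farthest from it.

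H2A genes package DNA as dimers with H2B, and the tested ones divided between a lowered pair and genes that were not called. Hist2h2aa2 (ENSMUSG00000063954.7, chromosome 3, 96239749 to 96240276, minus strand, 1 exon) measured 84.9, 82.3, 70.4, 83.5 and 66.7 CPM in WT and 38.6, 47.3, 49.0, 38.3 and 32.7 CPM in Fbp1-deleted liver. Every Fbp1-deleted liver lay below every WT liver, with a fitted log2 change of -0.91 (SE 0.12, adjusted p = 0.000323, edgeR). Its inverted copy Hist2h2aa1 (ENSMUSG00000064220.6, chromosome 3, 96245497 to 96246082, plus strand) measured 25.7, 16.5, 17.4, 17.8 and 19.5 CPM against 10.1, 15.8, 11.4, 11.0 and 11.8 CPM. The groups again did not overlap, though the highest Fbp1-deleted and lowest WT liver lay close together, with a log2 change of -0.69 (SE 0.15, adjusted p = 0.00636, edgeR). With both copies summed to 1 gene the change was -0.87 (SE 0.12, adjusted p = 0.000325, edgeR).

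Annotated noncoding genes overlap this H2A pair. Gm20634, which runs on the plus strand across Hist2h2aa1 and Hist2h3c1 (chromosome 3, 96245554 to 96248509), stood at 8.79 ± 1.31 CPM in WT and 2.95 ± 0.858 CPM in Fbp1-deleted liver, a change of -1.57 (adjusted p = 0.000243, edgeR). Gm20632, antisense to Hist2h2aa2, stood at 2.17 ± 0.393 against 0.709 ± 0.456 CPM, a change of -1.60 (adjusted p = 0.00955, edgeR). Where they overlap, reads of Gm20634 cannot be told apart from those of Hist2h2aa1, which lies on the same strand. Nor can reads of Gm20632 be told apart from those of Hist2h2aa2, since strand was not kept. Across the pair, all words of Hist2h2aa2 also recur in Gm20634. Of the words of Hist2h2aa1, 96.4% recur in Gm20632 and 100% in Gm20633, an untested gene antisense to Hist2h2aa1. Hist2h2aa1, Hist2h2aa2 and the genes that overlap them, summed to 1 gene, changed by -0.92 (SE 0.12, adjusted p = 0.000168, edgeR), a sum chosen after the data were seen.

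Hist3h2a (ENSMUSG00000078851.4, chromosome 11, 58954685 to 58956830, plus strand), the H2A gene of the small Hist3 cluster, measured 5.36, 5.27, 3.47, 4.43 and 5.45 CPM in WT and 4.89, 5.40, 5.14, 4.31 and 3.09 CPM in Fbp1-deleted liver. The groups lay over each other, with a fitted change of -0.07 (SE 0.19, adjusted p = 0.824, edgeR). Its annotated span overlaps that of Trim17, which shares 32.1% of its words. The H2A copies Hist1h2ap and Hist1h2ah were not called (changes of -0.88, SE 0.53, and 0.24, SE 0.66). Their WT livers ranged from 0.409 to 3.95 CPM and from 0 to 1.37 CPM, each range wider than the difference between that gene's group means.

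Among H2B genes, Hist1h2bc (ENSMUSG00000018102.5, chromosome 13, 23684199 to 23692908, plus strand) held most of the reads. It measured 65.9, 58.0, 65.4, 57.3 and 100 CPM in WT and 33.6, 41.5, 57.3, 37.8 and 41.1 CPM in Fbp1-deleted liver. WT replicate 5 stood far above the rest, and the lowest WT and highest Fbp1-deleted liver met at 57.3 CPM to the precision given. The change was -0.71 (SE 0.17, adjusted p = 0.0121, edgeR), and without WT replicate 5 it was -0.56 (adjusted p = 0.0213, within 0.00178 to 0.0356 over the 10 fits that each leave out 1 library).

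Hist2h2be (ENSMUSG00000068854.7, chromosome 3, 96221119 to 96223738, plus strand), an H2B gene whose annotated transcript ends with AATAAA, measured 2.95, 3.27, 2.17, 1.42 and 1.59 CPM in WT and 0.623, 0.390, 1.12, 0.789 and 0.992 CPM in Fbp1-deleted liver. Every WT liver lay above every Fbp1-deleted liver, with a log2 change of -1.54 (SE 0.34, adjusted p = 0.00694, edgeR), or 2.91-fold lower. Only 2.8% of its words recur elsewhere. Hist1h2be did not pass (-1.20, SE 0.43, adjusted p = 0.0647), and neither did Hist1h2bq (-0.09, SE 0.71), whose WT livers ranged from 0 to 3.28 CPM.

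H3 was represented by 1 gene. Hist2h3c2 (ENSMUSG00000081058.5, chromosome 3, 96238108 to 96239127, minus strand) measured 2.51, 1.96, 0.542, 1.91 and 1.03 CPM in WT and 0.240, 0.613, 0.582, 0 and 0.331 CPM in Fbp1-deleted liver. WT replicate 3 lay among the Fbp1-deleted livers and the other 4 above all of them. The change was -2.14 (SE 0.58, adjusted p = 0.0193, edgeR) on at most 51 counts in a library, and the call was lost without Fbp1-deleted replicate 6 (adjusted p = 0.0577, within 0.0126 to 0.0577 over the 10 such fits). Hist2h3c1, its annotated copy, was at 0 in every library, while 100% of its words recur in Gm20634. So do 64.2% of the words of Hist2h3c2. Gm20634 averaged 116.8 counts over the 10 livers and Hist2h3c2 19.8. The H3 sum and the change of Hist2h3c2 thus depend in part on how Salmon divided reads between these genes.

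Both tested H4 genes, which encode the partner of H3 in the nucleosome core, were lower. Hist1h4h (ENSMUSG00000060981.7, chromosome 13, 23531050 to 23531519, plus strand) measured 2.26, 1.84, 1.79, 2.19 and 1.75 CPM in WT and 0.910, 1.17, 0.873, 0.910 and 1.27 CPM in Fbp1-deleted liver. The groups did not overlap, with a log2 change of -0.93 (SE 0.24, adjusted p = 0.0149, edgeR). Hist1h4i (ENSMUSG00000060639.5, chromosome 13, 22040636 to 22041362, minus strand) measured 3.89, 4.78, 3.25, 5.25 and 1.59 CPM against 2.16, 2.17, 1.36, 2.0 and 1.93 CPM. WT replicate 5 lay within the Fbp1-deleted range, with a log2 change of -0.96 (SE 0.29, adjusted p = 0.0296, edgeR). Its call was lost with 6 of the 10 libraries left out singly, namely WT replicates 1, 2 and 4 and Fbp1-deleted replicates 6, 9 and 10 (adjusted p up to 0.0813, from 0.00510), and with limma-voom (adjusted p = 0.0736).

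Of the 6 replication-dependent genes for H1, the linker histone that binds DNA between nucleosomes, 2 were tested and 0 were called, at adjusted or unadjusted p under 0.05. Hist1h1c (ENSMUSG00000036181.2, chromosome 13, 23738808 to 23740367, plus strand) measured 25.1, 26, 15.1, 13.3 and 15.7 CPM in WT and 8.57, 10.5, 14.1, 9.47 and 32.5 CPM in Fbp1-deleted liver. Fbp1-deleted replicate 10 exceeded every other liver, and of the other 4 only replicate 8, at 14.1 CPM, reached the WT range. The change was -0.35 (SE 0.39, adjusted p = 0.569, edgeR), and without replicate 10 it was -0.84 (SE 0.23, adjusted p = 0.0294, within 0.0294 to 0.780 over the 10 such fits). Hist1h1d also had its highest Fbp1-deleted value in replicate 10, 1.10 CPM against 0.388 to 0.557 in the other 4, with a change of -0.42 (SE 0.45). Hist2h2aa2, by contrast, had its lowest level of all 10 livers in replicate 10.

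**Figure D4:**
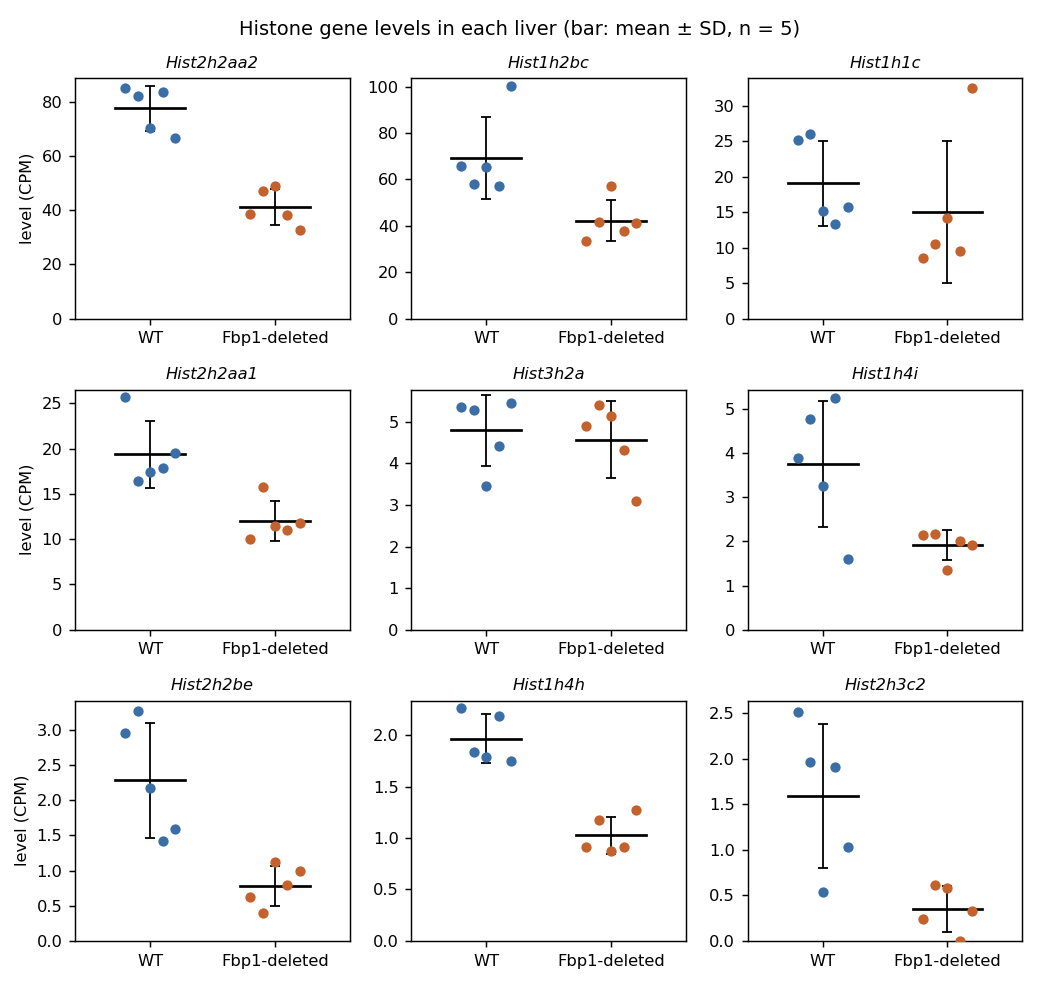
Level (CPM, linear axis from 0) of 9 histone genes in each of the 5 WT (blue) and 5 Fbp1-deleted (orange) livers, with the group mean and SD as bars. Groups are apart for Hist2h2aa2, Hist2h2aa1, Hist2h2be and Hist1h4h, meet at 57.3 CPM for Hist1h2bc, and overlap for Hist1h4i, Hist2h3c2, Hist3h2a and Hist1h1c, where 1 Fbp1-deleted liver stands at 32.5 CPM.

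By position, the called genes came from both large clusters. All 4 tested genes of the Hist2 cluster on chromosome 3, which spans 50.3 kb, were lower. So were 3 of 9 tested genes of the Hist1 cluster on chromosome 13, which spans 2219 kb. Among all genes tested, 10% were called lower. The 4 Hist2 genes are not fully separate measurements. All words of Hist2h2aa1 and Hist2h2aa2, and 64.2% of those of Hist2h3c2, recur in other genes. Neither Hist3h2a on chromosome 11 nor the untested Hist4h4 on chromosome 6 was called. Whether the clusters differ was not tested. Hist2h4, an H4 gene of the Hist2 cluster below the filter, had between 8 and 19 counts in WT and between 0 and 4 in Fbp1-deleted liver.

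Head-to-head pairs of an H2A and an H2B gene are a known arrangement of these clusters, with a shared stretch of promoter between them. There were 13 head-to-head pairs within 1 kb, 12 of them H2A with H2B, and 5 had a tested member, but in 0 were both members tested. Hist1h2bc averaged 1096 counts over the 10 livers and its partner Hist1h2ac 2.2 counts, and Hist2h2be averaged 31.1 counts and Hist2h2ac 0.9. The 250 bases between Hist1h2ac and Hist1h2bc thus lie between the most-read H2B gene and a gene that is almost unread in these libraries.

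The promoter stretches of these pairs are printed with that of Hist1h1c, to show the elements between the paired genes and before the linker gene. Sequences are from RefSeq (GRCm38.p6), which gave a promoter window for 62 of the 67 genes, from 250 bases before to 50 after the start. Hist1h2bc and Hist2h2be had no window. The pair stretches are therefore taken from the windows of Hist1h2ac and Hist2h2ac and read toward those genes. Capitals mark CCAAT boxes (CCAAT, the NF-Y element), the octamer (ATTTGCAT, read by POU factors), TATA boxes (TATAAA) and the H1 box (AAACACA), searched on both strands. The motifs do not contain each other. Transcribed bases are left out.
Hist1h2ac and Hist1h2bc, chr13:23683960-23684198, minus strand: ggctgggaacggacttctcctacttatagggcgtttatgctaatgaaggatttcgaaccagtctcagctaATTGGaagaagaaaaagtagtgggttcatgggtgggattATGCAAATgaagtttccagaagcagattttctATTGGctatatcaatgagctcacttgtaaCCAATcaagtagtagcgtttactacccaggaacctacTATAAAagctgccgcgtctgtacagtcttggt
Hist2h2ac and Hist2h2be, chr3:96220881-96221071, minus strand: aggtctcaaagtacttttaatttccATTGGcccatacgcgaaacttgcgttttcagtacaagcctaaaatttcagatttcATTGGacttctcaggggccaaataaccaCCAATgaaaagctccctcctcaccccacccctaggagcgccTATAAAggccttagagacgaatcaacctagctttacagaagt
Hist1h1c, chr13:23738557-23738806, plus strand: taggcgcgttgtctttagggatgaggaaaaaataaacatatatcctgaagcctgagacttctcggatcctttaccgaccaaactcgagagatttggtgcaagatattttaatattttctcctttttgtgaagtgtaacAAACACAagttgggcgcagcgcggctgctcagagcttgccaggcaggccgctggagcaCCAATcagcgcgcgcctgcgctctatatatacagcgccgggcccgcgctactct
Each pair's printed stretch holds 3 CCAAT boxes and 1 TATA box. In both stretches the TATA box lies at the end next to the H2A gene. The window of Hist1h2ac and that of Hist2h2ac each also hold an octamer. It is printed for the first pair, while for the second it lies beyond the printed stretch, which stops where RefSeq starts Hist2h2be, closer to Hist2h2ac than the GENCODE start. Hist1h1c holds 1 CCAAT box and 1 H1 box.

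Across the family, CCAAT stood in 53 of 62 promoter windows (85.5%), against 41.1% of the windows of all 27025 genes. It was present in all windows of H1, H2A, H2B and H3 genes and in 3 of 12 of H4 genes. The motif counts and shares given here cover whole windows, including the transcribed bases after the start. Matches before and after the start are not separated in them. In the H3 genes Hist2h3c1 and Hist2h3c2, no CCAAT lay wholly before the start. The octamer stood in 14 of 62 (22.6%, against 1.97% of all genes), 7 of them H2A and 7 H2B. The H1 box stood in 5 of 6 H1 windows, against 8.22% of all genes, and TATAAA in 56.5% of the family, against 15.7%. Windows of a head-to-head pair overlap and are not independent. Hist1h2bc and Hist2h2be are not among the 12 tested genes with a window. Of these 12, 10 held CCAAT, 4 TATAAA, 3 the octamer and 2 the H1 box. Before the start, the called genes Hist1h4h and Hist2h3c2 held 0 matches to any of these motifs.

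Histone genes listed as replication-independent, most of which are polyadenylated and used outside S phase, were called in both directions, with H2afx alone higher. Of 10 tested, 3 fell and 1 rose, with a median change of 0.05, where 10% of all genes tested fell and 10.6% rose. H2afv, an H2A.Z gene, fell from 36.9 ± 4.8 to 25.9 ± 4.28 CPM (adjusted p = 0.0141, edgeR), H2afj from 70.1 ± 6.29 to 52.8 ± 8.38 CPM (0.0240), and the linker histone gene H1f0 from 180 ± 23.7 to 142 ± 14.5 CPM (0.0448). H2afx, whose protein marks DNA breaks when phosphorylated, rose from 9.57 ± 1.81 to 14.9 ± 3.90 CPM (0.0242).

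Genes for the transcription and 3′ processing of histone mRNA were called mostly in the other direction. Of 22 tested, 6 rose and 0 fell, where 10.6% of all genes rose, and the median change was 0.08. With library totals in place of TMM, 3 rose and 1 fell, and DESeq2 called 6 and 1. Casp8ap2, which encodes the FLASH protein of histone locus bodies, rose by 0.80 (log2; SE 0.16, edgeR adjusted p = 0.00351), with 3.93 ± 0.263 CPM in WT and 6.82 ± 1.18 CPM in Fbp1-deleted liver. Coil, the coilin gene, rose by 0.66 (SE 0.14), the cap-binding gene Ncbp1 by 0.50 (SE 0.14) and the cleavage factor gene Cstf2 by 0.46 (SE 0.14). Slbp stood at 11.4 ± 1.03 in WT and 13.6 ± 1.19 CPM in Fbp1-deleted liver (adjusted p = 0.124), and Npat, the coactivator of histone gene transcription, at 4.35 ± 0.880 and 5.99 ± 0.788 CPM (adjusted p = 0.0745), and neither passed. At an unadjusted p under 0.05, 9 of the 22 genes were higher and 1 lower. Of 21 histone chaperone genes tested, 0 were called by edgeR or limma-voom, with 4 higher and 1 lower at an unadjusted p under 0.05, and DESeq2 called 3 higher.

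Markers of dividing cells were not called. Of 16 proliferation markers tested, 0 were called by edgeR or limma-voom (1 higher and 1 lower at an unadjusted p under 0.05, and 1 each by DESeq2). Mki67, which encodes the Ki-67 antigen, measured 1.08, 1.72, 2.49, 2.35 and 1.39 CPM in WT and 2.49, 2.56, 1.07, 1.40 and 1.71 CPM in Fbp1-deleted liver, and the groups lay over each other. The summed level of the 20 listed markers ranged from 65.5 to 122 CPM in WT and from 56.8 to 89.8 CPM in Fbp1-deleted liver, and none was at 0 in all libraries. With library totals in place of TMM, 1 marker fell.

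Of 23 tested DNA replication genes, 2 rose and 2 fell (with library totals, 2 and 3), where 10.6% of all genes tested rose and 10% fell. The ribonucleotide reductase genes Rrm2 and Rrm1, which make deoxynucleotides, rose by 1.66 (SE 0.17) and 0.84 (SE 0.15). Tk1, the thymidine kinase of S phase, fell by 2.44 (SE 0.24), and Gins1, a helicase subunit gene, by 0.79 (SE 0.24) on the log2 scale. Tk1 overlaps the spans of other annotated genes.

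**Figure D5:**
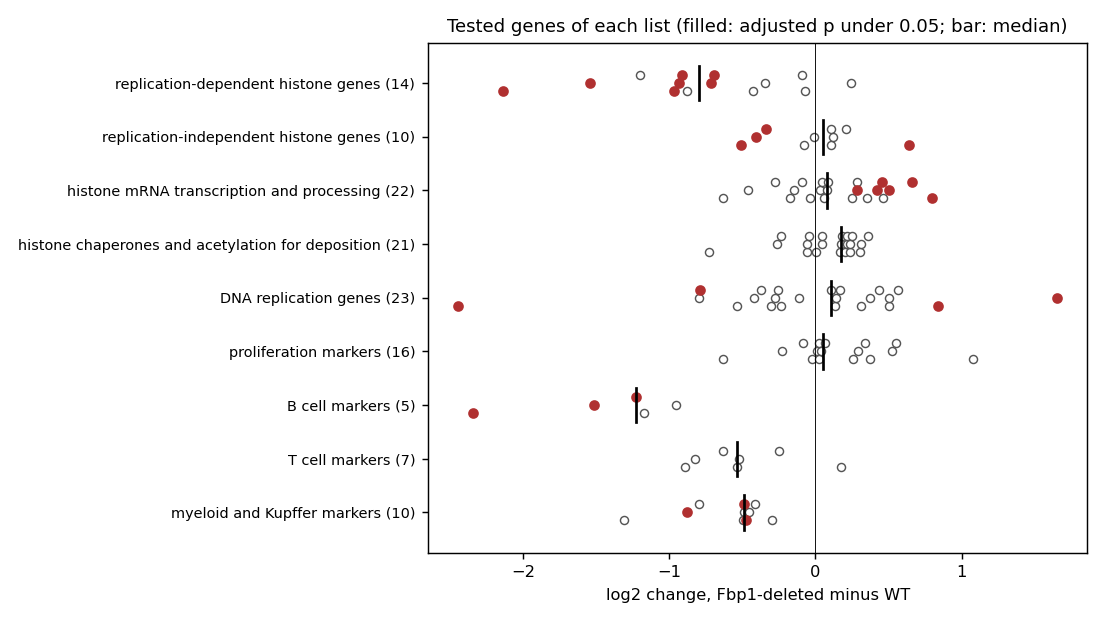
Fitted log2 change of each tested gene, Fbp1-deleted minus WT, by gene list (number of tested genes in brackets), filled red where the adjusted p was under 0.05, with the list median as a bar. The replication-dependent histone genes have 7 filled points, all below 0, the processing genes 6, all above 0, and the proliferation markers none.

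Some markers of B cells and of myeloid and Kupffer cells also fell, where 10% of all genes tested were called lower. Of 5 tested B cell markers 3 fell, among them Pax5 by 2.34 (SE 0.59) and Cd79a by 1.23 (SE 0.32) on the log2 scale, and all 5 were lower at an unadjusted p under 0.05. The summed level of the 6 listed markers was 5.52 to 9.45 CPM in WT and 1.82 to 5.04 CPM in Fbp1-deleted liver. Of 10 myeloid and Kupffer cell markers 3 fell, namely Lyz2, Vsig4 and Csf1r, and 7 were lower at an unadjusted p under 0.05. DESeq2 called 4 lower and library totals 5, with 0 higher in either, while for B cells both called 3. The myeloid markers had summed levels of 246 to 312 CPM against 165 to 243 CPM. Of 7 tested T cell markers 0 were called by edgeR, DESeq2 or limma-voom (2 lower at an unadjusted p under 0.05), with sums of 6.17 to 10.4 CPM against 5.96 to 7.38 CPM. No listed marker of these cells was at 0 in all libraries, and their part in the fall of histone transcripts was not tested.

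Erythroid, endothelial, stellate and hepatocyte markers were also read, where 10% of all genes tested fell and 10.6% rose. Of 8 tested erythroid markers 1 fell, Klf1, with sums of 216 to 372 CPM against 159 to 375 CPM. Of 9 endothelial and stellate markers Lyve1 and Dcn rose, with sums of 237 to 278 CPM against 244 to 312 CPM, though the list's median change was -0.20 and with library totals 1 rose and 2 fell. Hepatocyte markers were abundant in all livers, with sums of 66446 to 108297 CPM in WT and 96423 to 108374 CPM in Fbp1-deleted liver. Of the 8, Tat and Cps1 rose, and Alb stood at 56504 ± 15155 against 63690 ± 3112 CPM (adjusted p = 0.518, edgeR).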

How the data were processed

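Per the submitters' processing notes, CASAVA, Salmon and the build GRCm38 were used, with versions not given in the sources used here. The authors deposited estimated counts per gene, as whole numbers, 1 column per liver. How transcript estimates were combined to genes is not stated. Totals were between 17778395 and 23894812 counts per library, of which histone genes held 0.0103% to 0.0247%, so precision is limited by counts of few genes. The libraries do not keep the strand, per the labels.

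Identifiers were named with GENCODE M21 (52175 of 53392 matched with version). Groups come from the sample titles. Nothing pairs the livers. Testing used edgeR 4.0.16 under R 4.3.3 (filterByExpr, TMM, robust quasi-likelihood, ~ group), adjusted over 15392 genes, threshold 0.05, after a check on simulated data. In that check 55.7% of genes changed by 1 on the log2 scale were recovered, and 91.8% of those changed by 2. A gene that was not called may therefore still differ. CPM (counts scaled to library size) was computed on totals after TMM scaling. Each SE is the absolute log2 change over the root of its F statistic. Words of 31 bases were compared over all annotated transcripts on both strands.

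Values per liver are given for each called histone gene and the 5 tested ones with the highest mean CPM, and other lists name up to 4 called genes with Alb, Mki67, Slbp and Npat (1 called gene that this rule names is not reported here). Other histone genes named, the overlapping and neighbouring genes and the head-to-head pairs were chosen after their values were seen. The members and lists were chosen with earlier results of these data known. Alternatives were RLE factors, library totals, no filter, a mean of 10 counts, DESeq2 1.42.0, limma-voom (limma 3.58.1), near-identical copies summed (80% of words shared), and each library left out. P-values judge the difference between the groups against the spread between the livers of a group.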

Additional observations from a re-analysis of the deposited data

Results flagged for a closer look

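In 18 groups of 5 values (9 histone genes in each genotype), 2 held a library far from the rest, with a gap to its neighbour above 0.71 of the group's range. Chance gives about 1 in 20 such groups. Hist1h2bc stood at 100.2 CPM in WT replicate 5, where the next WT liver had 65.9 CPM. Hist1h1c stood at 32.5 CPM in Fbp1-deleted replicate 10, where the next Fbp1-deleted liver had 14.1 CPM.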

How the results depend on the processing

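In every fit 0 histone genes were higher. The number lower was 6 or 7 under the 8 other settings and between 5 and 8 with each library left out, against 7 as reported. Hist2h2aa2, Hist1h2bc and Hist2h2be were called in all 19 fits, Hist1h4h in 18 and Hist1h4i in 12. Hist2h2aa1 was called in 17 and was summed with Hist2h2aa2 in the other 2. Hist2h3c2 was called in 17, was summed with other H3 copies in 1 and lost its call without Fbp1-deleted replicate 6. Without the filter on low counts 56 histone genes were tested, Hist1h4h lost its call (adjusted p = 0.0587) and Hist2h4 gained one. Without WT replicate 3, Hist1h2be was called. Hist3h2a ranged from -0.17 to 0.0352 with each library left out and changed sign without Fbp1-deleted replicate 10 (0.0352, adjusted p = 0.915), and the cause was not tested. Over all genes, with each library left out, between 1066 and 2060 were higher and between 1019 and 1858 lower, against 1636 and 1542 with all libraries. The lowest counts came without Fbp1-deleted replicate 9 (1066 higher) and replicate 6 (1086 higher, 1019 lower). The median change of all genes was -0.08 with library totals and 0.01 with TMM. No paired analysis was possible because the replicate numbers differ between the groups.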

Other observations

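Other genes near the histone clusters were also tested, where 10% of all genes tested fell and 10.6% rose. Within 250 kb of the Hist2 genes, 4 of 11 other tested genes fell and 1 rose. Beside Gm20634 and Gm20632, which overlap histone genes, the phosphatase-like gene Mtmr11 fell by 0.95 (SE 0.30) and Gm17690, annotated as antisense and overlapping it, by 0.81 (SE 0.20) on the log2 scale, while Otud7b, a deubiquitinase gene, rose by 0.47 (SE 0.12). Within 250 kb of the Hist1 genes, 1 of 13 fell and 2 rose. There Slc17a3, a solute carrier gene, fell by 1.24 (SE 0.15) on the log2 scale, while Slc17a4, of the same family, rose by 1.33 (SE 0.11) and Carmil1 by 1.70 (SE 0.28). Within 250 kb of the Hist3 genes, 2 of 12 fell and 3 rose, among them the ubiquitin ligase gene Trim11, which fell by 0.91 (SE 0.13), and the guanylate kinase gene Guk1, which rose by 0.89 (SE 0.16). Within the same distance of Hist4h4, 1 of 11 fell, the variant histone gene H2afj, and 1 rose: Gucy2c, a guanylate cyclase receptor gene, by 1.96 (SE 0.37). These genes were chosen after their values were seen.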
